A study of Homo sapiens with 6 samples.

Results

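The CHD genes encode chromodomain helicase DNA-binding proteins, ATP-driven enzymes that slide, space or evict nucleosomes. The 8 members analysed were CHD1, CHD2, CHD3, CHD4, CHD6, CHD7, CHD8 and CHD9, taken by symbol out of 33514 gene symbols in the count tables. The family was chosen from earlier results of the same libraries, in which CHD7 stood among the largest falls at 2 h. The members' changes after heme are therefore given as a description, with standard errors and without p-values. CHD5, the remaining CHD gene, was not among the members chosen. Its level lay between 2.44 and 3.17 CPM (the gene's reads per 1000000 gene reads of the library, after scaling between libraries) in the 6 libraries. CHD1L, a more distant relative without chromodomains, was counted among the other remodellers.

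RNA of PC3, an established line from a bone metastasis of a human prostate carcinoma, was sequenced in 3 groups of 2 libraries each: untreated cells, cells after 2 h with 50 µM heme in the medium, and cells after 4 h with 50 µM heme. All cells grew in RPMI medium with serum and antibiotics, and the untreated group is labelled as having no treatment, with no mock-treated arm among the samples analysed. Nothing in the labels says whether the 2 libraries of a group came from separate cultures, so errors and p-values cover only how far these libraries differ from each other, which may be technical spread. Gene reads numbered from 53129375 to 55537611 per library, and 16209 genes passed the filter on low counts, all 8 members among them.

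The libraries carried markers of an epithelial line, while the luminal prostate markers examined were absent. KRT8, a keratin, lay between 549 and 639 CPM and CDH1, the epithelial cadherin, between 467 and 595 CPM. KLK3 and FOLH1, which mark luminal prostate cells, had no read in any library. The 7 markers of blood cells summed to at most 2.64 CPM, and HBB and HBA1, the hemoglobin genes, were at 0. The 5 fibroblast markers summed to between 41.5 and 48.4 CPM at 2 h, against 26.3 to 29.1 CPM in untreated cells, nearly all of it COL1A1. The 3 endothelial markers summed to between 33.1 and 40.8 CPM at 2 h, against 20.2 to 20.8 CPM in untreated cells, nearly all of it PECAM1. DCN and CDH5, defining markers of fibroblasts and endothelium, stayed at or below 0.0174 CPM for DCN and 0.329 CPM for CDH5 in every library. HMOX1, the heme-degrading enzyme that cells switch on when given heme, stood at 451 and 328 CPM after 2 h and at 382 and 341 CPM after 4 h, against 10.4 and 11.4 CPM in untreated cells. Both heme groups thus carried the mark of the treatment.

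The family falls into 3 subfamilies by domain content. CHD1 and CHD2 form the first, and CHD1 reads methylated lysine 4 of histone H3 and spaces nucleosomes behind RNA polymerase. CHD1 is often deleted in prostate cancer. CHD3 and CHD4 form the second, carry PHD fingers and are the alternative motor subunits of the NuRD complex, which couples nucleosome remodelling with histone deacetylation. CHD6, CHD7, CHD8 and CHD9 form the third and carry BRK domains. Loss of one CHD7 copy causes CHARGE syndrome, and CHD8 binds beta-catenin and is among the genes most often mutated in autism.

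Promoter windows were shown for the members of the first and second subfamilies, since in each of these pairs the members differed in their change at 2 h. The RefSeq table gave windows of 250 bases before and 50 bases after the start on GRCh38.p14 for 6 of the 8 members, 9 windows in all. CHD6 and CHD7 had none. Capitals mark a match to 1 of 4 motifs searched on both strands: the G-quadruplex pattern (4 runs of at least 3 G with 1 to 7 bases between them), the E-box CACGTG that MYC and MAX bind, the cyclic AMP response element TGACGTCA, and TGACNNNGC, the core of the antioxidant response element that NRF2 and the heme-sensing repressor BACH1 bind. The sequences read 5′ to 3′ on the strand of the gene.
CHD1 (chr5:98928958-98929257, minus strand): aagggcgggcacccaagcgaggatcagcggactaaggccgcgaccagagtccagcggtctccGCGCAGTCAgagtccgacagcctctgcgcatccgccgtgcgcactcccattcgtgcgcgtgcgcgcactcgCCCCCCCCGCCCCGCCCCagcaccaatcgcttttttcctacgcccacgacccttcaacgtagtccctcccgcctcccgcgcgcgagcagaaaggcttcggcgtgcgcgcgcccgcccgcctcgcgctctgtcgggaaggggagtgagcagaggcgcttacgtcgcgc
CHD2 (chr15:92900074-92900373, plus strand): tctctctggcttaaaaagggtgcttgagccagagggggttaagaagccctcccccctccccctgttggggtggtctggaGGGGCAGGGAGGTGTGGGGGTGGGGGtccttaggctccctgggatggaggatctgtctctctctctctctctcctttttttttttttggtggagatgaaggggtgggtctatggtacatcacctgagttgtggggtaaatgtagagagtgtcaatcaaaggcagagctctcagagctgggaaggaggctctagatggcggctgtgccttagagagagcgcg
CHD3 (chr17:7888539-7888838, plus strand): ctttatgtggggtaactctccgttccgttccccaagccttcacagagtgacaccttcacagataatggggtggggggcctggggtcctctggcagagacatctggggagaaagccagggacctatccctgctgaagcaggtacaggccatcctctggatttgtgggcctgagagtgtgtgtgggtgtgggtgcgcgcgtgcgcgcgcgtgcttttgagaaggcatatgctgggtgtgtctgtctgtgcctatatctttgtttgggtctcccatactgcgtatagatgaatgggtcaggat
CHD4 (chr12:6606402-6606701, minus strand): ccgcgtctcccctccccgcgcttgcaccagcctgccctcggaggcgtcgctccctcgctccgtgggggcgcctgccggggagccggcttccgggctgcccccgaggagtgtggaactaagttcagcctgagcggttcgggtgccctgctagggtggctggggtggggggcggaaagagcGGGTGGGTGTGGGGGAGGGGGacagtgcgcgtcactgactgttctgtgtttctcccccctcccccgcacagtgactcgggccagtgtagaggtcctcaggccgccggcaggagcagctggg

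The G-quadruplex pattern was found in the windows of CHD1, CHD2 and CHD4, on the opposite strand in CHD1 and on the gene's strand in CHD2 and CHD4. It was also found in 1 of the 4 windows of CHD9, on the opposite strand, and 25.0% of all 35116 windows in the table held it. CHD1 held TGACNNNGC on the opposite strand, as did 13.3% of all windows on either strand. Another window of CHD9 held CACGTG, a palindrome, against 7.26% of all windows. TGACGTCA was in none of the 9 windows, against 1.85% of all windows. The windows of CHD3 and CHD8 held none of the 4 motifs. The windows of CHD3, CHD4 and CHD8 lie inside the annotated genes, away from their outermost starts. Other starts of these genes were not searched. Any part of these motifs in the changes after heme was not tested.

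In untreated cells the members differed widely in level. Per kilobase of annotated exons, CHD3 came first with 20.3 and 20.6 CPM per kilobase in the 2 libraries. CHD1 followed with 17.9 and 16.0 and CHD4 with 12.7 and 12.0 CPM per kilobase. CHD8 stood at 6.78 and 6.32, CHD6 at 3.52 and 3.26 and CHD2 at 3.16 and 2.97 CPM per kilobase. CHD7 stood at 2.05 and 1.95 and CHD9 at 1.58 and 1.33 CPM per kilobase. The untreated values of CHD6 and CHD2 lay closer together than those of any other neighbours in this order, but the libraries of all neighbouring pairs were separate. With the longest transcript as length, CHD4 (23.6 ± 0.897 CPM per kilobase, SD, n = 2) passed CHD1 (21.9 ± 1.77 CPM per kilobase) and CHD2 passed CHD6, so the order within these pairs rests on the length used.

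Overlapping annotation limits the levels of 2 members. A transcript named AC006064.6, which runs through the CHD4 locus on the same strand, shares 46.9% of CHD4's exon bases, and an antisense transcript, AC006064.2, shares 10.2%. AC006064.6 had at most 1 read in a library and AC006064.2 between 17 and 41. AC013394.1, which enters CHD2 from upstream on the same strand, shares 10.2% of CHD2's exon bases and had between 500 and 624 reads. Its level did not pass the threshold at either time, with a log2 change of 0.03 (SE 0.15) at 2 h and -0.02 (SE 0.15) at 4 h. Between 4.23% and 4.48% of all counted reads, those outside genes included, were set aside as ambiguous between genes. The levels of CHD4 and CHD2 are therefore uncertain and may be understated. So the place of CHD4 below CHD3 and CHD1, and the family shares given further below, are uncertain too. The fold changes below compare a gene with itself across libraries.

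After 2 h of heme CHD7, CHD1, CHD9 and CHD8 stood below the untreated libraries and CHD3, CHD2 and CHD6 above them. In the edgeR fit over all genes, 2 of the 8 members were past an adjusted p of 0.05 on the higher side (CHD2 and CHD3) and 2 on the lower side (CHD1 and CHD7). That threshold was passed by 31.7% of all 16209 genes at 2 h, 15.9% higher and 15.8% lower. The groups did not overlap for 7 of the 8 members, and for 67.8% of all tested genes. The median log2 change of the members was -0.08, beside 0.02 over all tested genes. Since the family was chosen with this comparison in view, nothing is read from these shares. In RNA of a whole culture, a lower level in every cell and a loss in part of the cells cannot be told apart.

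**Figure D1:**
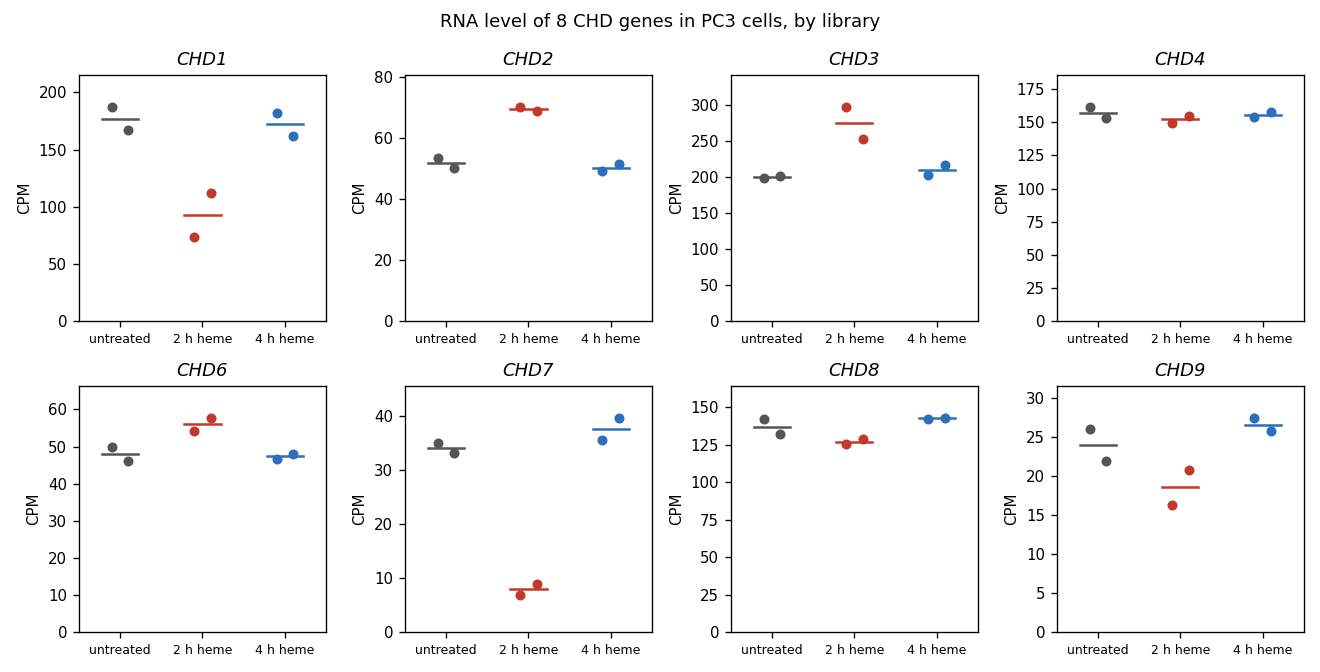
RNA level of each CHD gene in CPM (vertical axes from 0) in the 2 libraries of untreated cells, of 2 h heme and of 4 h heme; points are libraries and lines are means. CHD7 lay at 6.82 and 8.96 CPM at 2 h, below all 4 other libraries, and CHD4 showed overlapping groups.

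CHD7 held the largest fall of the family at 2 h. This remodeller acts mainly at enhancers, and its gene (ENSG00000171316.11) lies on chromosome 8 from 60678778 to 60868028. It had 387 and 516 reads after 2 h of heme, against 1808 and 1785 reads in untreated cells. That made 6.82 and 8.96 CPM at 2 h, against 34.9 and 33.1 CPM untreated. Both 2 h libraries were far below both untreated ones, at 20.1% and 26.4% of the untreated mean. The fitted change was 4.30-fold lower (log2 -2.11, SE 0.14). After 4 h CHD7 stood at 35.5 and 39.6 CPM, above both untreated libraries by a small margin (log2 0.15, SE 0.14). The 4 h level was 4.76-fold that of 2 h (log2 2.25, SE 0.15).

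CHD1 (ENSG00000153922.10, chromosome 5, 98853985 to 98928957) came next. It stood at 73.6 and 112 CPM after 2 h, against 187 and 167 CPM in untreated cells. Both 2 h libraries were below both untreated ones, but they differed from each other by 1.52-fold, the widest gap between replicates in the family. The fitted change was 1.91-fold lower (log2 -0.93, SE 0.15). Without the first 2 h library the change was log2 -0.67 (SE 0.11), and without the second it was log2 -1.29 (SE 0.12). After 4 h CHD1 stood at 182 and 162 CPM, within the range of the untreated libraries at one end and just below it at the other (log2 -0.04, SE 0.15).

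CHD2, the closest relative of CHD1 and known for placing the histone variant H3.3, moved the other way. It stood at 70.3 and 68.8 CPM after 2 h, against 53.7 and 50.4 CPM in untreated cells, with no overlap (log2 0.42, SE 0.10). At 4 h it stood at 49.2 and 51.5 CPM (log2 -0.05, SE 0.10). CHD2 (ENSG00000173575.20) lies on chromosome 15 from 92900189 to 93028005. Its 2 h value no longer passed the threshold when either untreated library was left out, with a log2 change of 0.46 (SE 0.17) without the first and 0.35 (SE 0.17) without the second.

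The NuRD motors diverged as well. CHD3 (ENSG00000170004.16, chromosome 17, 7884806 to 7912760) stood at 297 and 253 CPM after 2 h, against 198 and 201 CPM in untreated cells. Both 2 h libraries were above both untreated ones (log2 0.46, SE 0.10). At 4 h CHD3 stood at 202 and 217 CPM, just above the untreated libraries (log2 0.07, SE 0.10). CHD4 (ENSG00000111642.15, chromosome 12, 6570082 to 6614524) stood at 149.8 and 155 CPM after 2 h and at 154 and 157 CPM after 4 h, against 162 and 153 CPM in untreated cells. Its groups overlapped at both times, and its log2 change was -0.05 (SE 0.09) at 2 h and -0.01 (SE 0.09) at 4 h.

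The remaining members of the third subfamily moved less than CHD7. CHD6 (ENSG00000124177.14, chromosome 20, 41402101 to 41618494) stood at 54.2 and 57.8 CPM after 2 h, against 49.8 and 46.0 CPM in untreated cells, and was not past the threshold (log2 0.22, SE 0.11). CHD8 (ENSG00000100888.13, chromosome 14, 21385194 to 21456126) stood at 125 and 129 CPM after 2 h, against 142 and 132 CPM in untreated cells, and was not past it either (log2 -0.11, SE 0.09). CHD9 (ENSG00000177200.17, chromosome 16, 53055033 to 53329150), described in mesenchymal and bone-forming cells, stood at 16.3 and 20.9 CPM after 2 h, against 26.0 and 22.01 CPM in untreated cells. Its log2 change of -0.37 (SE 0.14) missed the threshold in the edgeR fit and passed it in DESeq2 (log2 -0.39, SE 0.15). Without the first 2 h library the change of CHD9 was log2 -0.21 (SE 0.14), not past the threshold, and without the second it was log2 -0.58 (SE 0.14), past it. The groups of all 3 genes were separate at 2 h, though for CHD9 and CHD8 by a margin smaller than the gap between their untreated replicates. At 4 h their log2 changes were -0.02 (SE 0.11) for CHD6, 0.06 (SE 0.09) for CHD8 and 0.15 (SE 0.14) for CHD9.

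**Figure D2:**
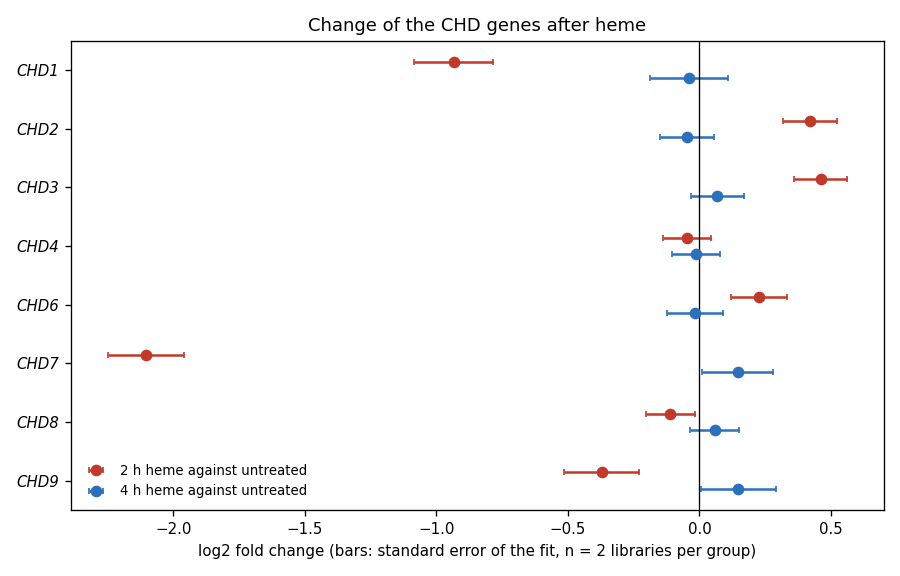
Log2 fold change of each CHD gene after 2 h and after 4 h of heme against untreated cells; points are fitted changes and bars are standard errors of the fit (n = 2 libraries per group). At 2 h the points spread from -2.11 for CHD7 to 0.46 for CHD3, and at 4 h they lie between -0.05 and 0.15.

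At 4 h none of the 8 members was past the threshold in edgeR or in DESeq2, and none had an unadjusted edgeR p under 0.05. Over all tested genes 0.0308% (5 of 16209) passed it at 4 h, 0.0247% higher and 0.00617% lower, and 583 had an unadjusted p under 0.05. The groups of 3 members (CHD3, CHD7 and CHD8) did not overlap, against 34.4% of all genes. Between the heme groups, CHD1, CHD7 and CHD9 were past the threshold on the higher side at 4 h against 2 h and CHD2 and CHD3 on the lower side. The background in that comparison was 28.1%, with 14% higher and 14.1% lower. The 2 heme groups did not overlap for 7 of the 8 members, and for 62.3% of all tested genes. The comparisons share libraries: the untreated libraries enter both heme contrasts, and the 2 h libraries enter both contrasts that name 2 h. At 4 h HMOX1 stood 33.2-fold above untreated cells while the 8 CHD genes lay within 0.15 log2 units of them.

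Within a library, the ratio of reads of 2 genes does not depend on how libraries are scaled. CHD2 had 0.955 and 0.616 reads per read of CHD1 after 2 h, against 0.287 and 0.302 in untreated cells, a mean 2.67 times as high. The CHD2 to CHD1 ratio was 0.270 and 0.317 after 4 h, on either side of the untreated values. CHD3 had 1.98 and 1.64 reads per read of CHD4 after 2 h, against 1.23 and 1.32 in untreated cells. After 4 h the CHD3 to CHD4 ratio was 1.31 and 1.38. CHD6 had 7.95 and 6.45 reads per read of CHD7 after 2 h, against 1.43 and 1.39 in untreated cells, and 1.31 and 1.21 after 4 h. In each of these ratios both 2 h libraries lay above all 4 others.

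**Figure D3:**
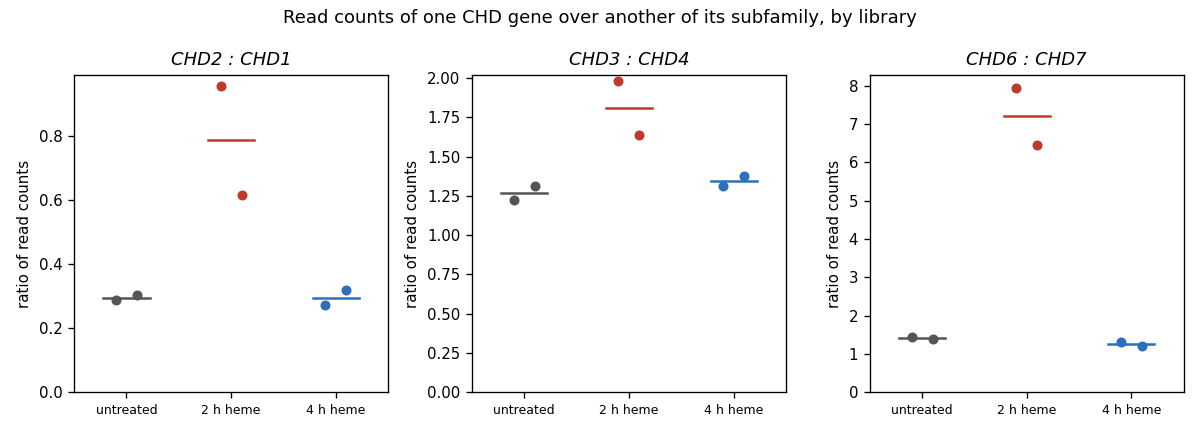
Ratio of read counts of CHD2 to CHD1, CHD3 to CHD4 and CHD6 to CHD7 in each library (vertical axes from 0); points are libraries of untreated cells, 2 h heme and 4 h heme, and lines are means. The CHD6 to CHD7 ratio lies at 7.95 and 6.45 at 2 h and between 1.21 and 1.43 in the other 4 libraries.

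The summed level of the family moved little while its makeup shifted. The 8 genes together had 793 and 804 CPM after 2 h and 840 and 844 CPM after 4 h, against 853 and 805 CPM in untreated cells. The 2 h libraries had the lowest sums, the second of them only just below the lower untreated library. Per kilobase of exons, CHD3 made up 47.1% and 40.0% of the family's signal after 2 h, against 29.8% and 32.0% in untreated cells. CHD1 made up 10.9% and 16.5% after 2 h, against 26.4% and 24.8% in untreated cells. CHD7 made up 0.622% and 0.813% after 2 h, against 3.02% in each untreated library. In the order of mean levels per kilobase, CHD7 stood last at 2 h, below CHD9, with either length. Per kilobase of exons CHD4 stood above CHD1 at 2 h, as it did in every group with the longest transcript as length. At 4 h the order was that of untreated cells.

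The 2 h libraries did not stand equally far from untreated cells. The first lay farther from the untreated mean than the second for 7 of the 8 members, CHD6 being the exception, and for 63.8% of all tested genes. HMOX1 was likewise higher in the first (451 CPM) than in the second (328 CPM). The share of reads outside annotated genes was 5.87% in the first and 6.88% in the second, against 6.27% and 6.29% in untreated cells. Mitochondrial messenger RNAs took 2.54% and 2.69% of gene reads at 2 h, against 2.73% and 2.66% in untreated cells. Their part in the difference between the 2 h libraries was not tested.

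Base composition moved with the changes at 2 h. Over all tested genes sorted by the GC content of the longest transcript, the median log2 change ran from -0.19 in the lowest quintile (up to 41.1% GC) to 0.24 in the highest quintile (from 58.1% GC). CHD1 with 38.1% GC and CHD9 with 38.4% GC belonged to the lowest quintile. CHD3, at 56.1% GC, had the highest GC content of the 8 and the largest log2 rise. The other members did not follow the order of GC content. CHD4 with 51.8% GC stood at log2 -0.05 and CHD8 with 49.3% GC at log2 -0.11. CHD6 with 47.2% GC stood at log2 0.22 and CHD2 with 46.8% GC at log2 0.42. CHD7, with the largest fall, stood at 47.5% GC, in a quintile where the median change of all genes was 0.01. With a correction for GC content and length in each library, the log2 change at 2 h was -2.30 for CHD7 (SE 0.11), -0.87 for CHD1 (SE 0.09) and 0.26 for CHD2 (SE 0.07), all still past the threshold. Under this correction CHD3 dropped to log2 0.19 (SE 0.07) and was no longer past it. CHD9 (log2 -0.35), CHD8 (log2 -0.30) and CHD4 (log2 -0.24) were past it on the lower side. Under the same correction 14.5% of all tested genes were higher and 27.5% lower, against 15.9% and 15.8% without it, and their median log2 change was -0.07. So the place of CHD3 among the genes past the threshold depended on that correction, and those of CHD7, CHD1 and CHD2 did not.

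**Figure D4:**
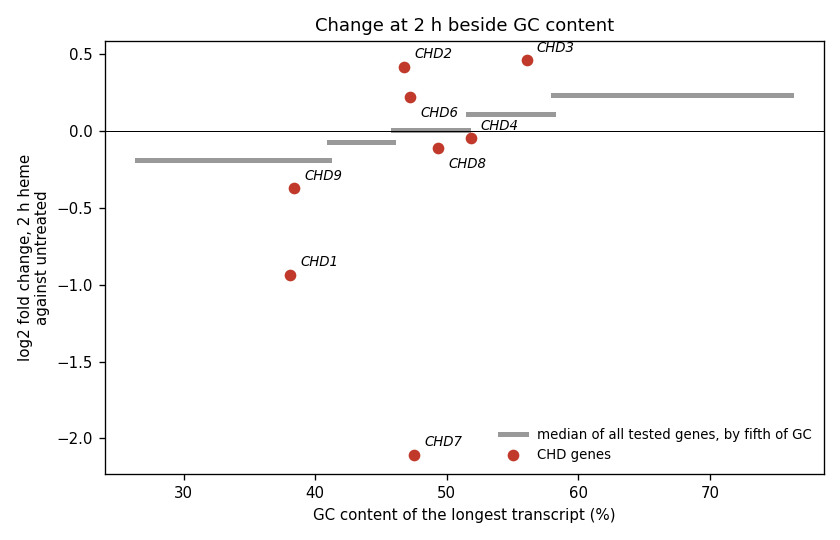
Log2 fold change of the CHD genes at 2 h against untreated cells (vertical axis) beside the GC content of the longest transcript in percent (horizontal axis); grey lines are the medians of all tested genes in quintiles of GC content. The medians run from -0.19 to 0.24, CHD1 and CHD9 lie in the lowest quintile, and CHD7 lies at -2.11 with 47.5% GC.

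The members share long transcripts. Their longest transcripts run from 6.67 to 13.1 kb, beside a median of 3.25 kb over all tested genes, and their genes span from 27.96 to 274 kb, beside a median of 27.7 kb. CHD7 spans 189 kb, while CHD9 (274 kb) and CHD6 (216 kb) span more and changed less at 2 h. Over all tested genes, the longest quintile by span (from 89.1 kb) had a median log2 change of 0.06 at 2 h. CHD3, the shortest gene of the family, was among the members past the threshold on the higher side. Any part of gene span in the changes at 2 h was not tested.

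The genes whose profile over the 6 libraries was most like that of CHD7 were LRIG3, TBC1D30, KAZN, CCNF and HJURP. Likeness was measured as the root mean square difference of centred log2 CPM among 11931 genes with a mean of at least 2 CPM. LRIG3 came first with a difference of 0.137. It stood at 2.40 and 2.99 CPM after 2 h, against 12.6 and 12.5 CPM in untreated cells. CCNF, a cyclin that is part of a ubiquitin ligase, stood at 19.4 and 22.2 CPM after 2 h, against 72.6 and 67.3 CPM. CHD1 was followed most closely by RIF1, a telomere and replication timing factor (difference 0.037), which stood at 58.2 and 95.1 CPM after 2 h, against 156 and 133 CPM in untreated cells. For the other members the nearest gene was RWDD2A for CHD2 (0.033), LEMD2 for CHD3 (0.017), EIF4EBP2 for CHD4 (0.016), USP28 for CHD6 (0.011), ZDHHC6 for CHD8 (0.011) and USP38 for CHD9 (0.039). HJURP (24.4 and 34.6 CPM after 2 h, against 110.3 and 100.3 CPM in untreated cells), which loads the centromeric histone, was the last of the genes named for CHD7.

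The genes that work with the CHD proteins, and the other remodellers, were followed in 12 lists. Of 150 genes tested in them, 12 rose (8%) and 44 fell (29.3%) at 2 h by edgeR's adjusted p, beside 15.9% and 15.8% of all tested genes. Their median log2 change was -0.11, beside 0.02 over all tested genes. The lists were drawn up with earlier results of these data known. Without the first untreated library 4 rose and 15 fell, while 7.16% of all tested genes rose and 6.59% fell. Without the second 4 rose and 21 fell, beside 8.35% and 9.33% of all tested genes. Without the first 2 h library 11 rose and 27 fell, beside 11.4% and 11.7%. With the correction for GC content and length 8 rose and 75 fell, beside 14.5% and 27.5% of all tested genes. At 4 h none of the 150 passed the threshold in edgeR or in DESeq2, and 2 had an unadjusted edgeR p under 0.05. Between the heme times 36 were higher and 11 lower at 4 h than at 2 h, beside 14% and 14.1% of all tested genes.

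**Figure D5:**
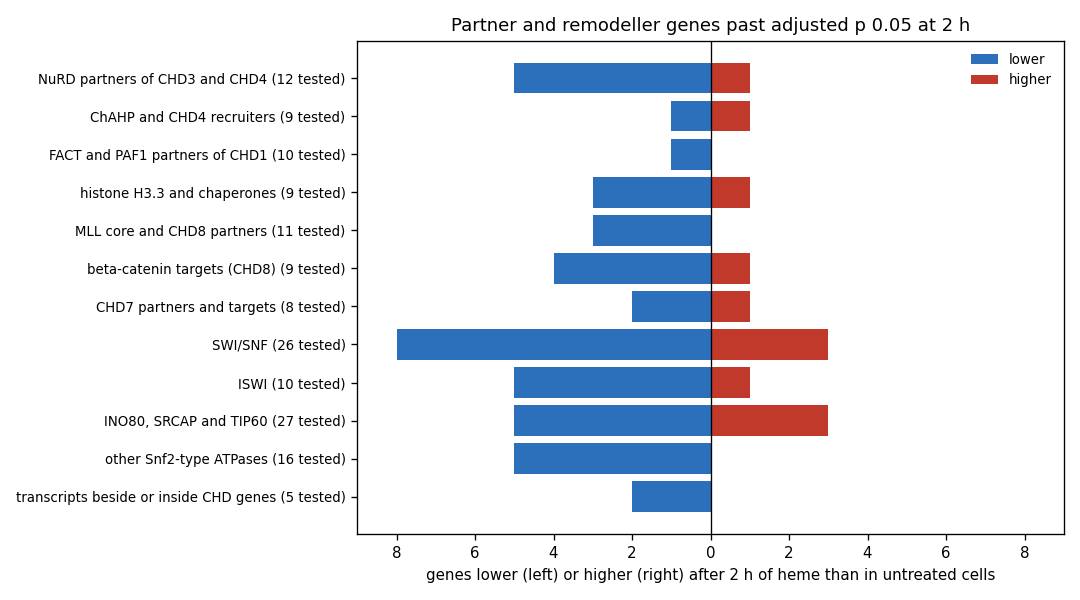
Number of genes in each list past an adjusted p of 0.05 in edgeR at 2 h, lower than in untreated cells (left, blue) or higher (right, red); the number tested stands beside each list. ISWI had 5 of 10 genes lower, SWI/SNF 8 of 26, and the FACT and PAF1 list 1 of 10. Over all tested genes 15.8% were lower and 15.9% higher.

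Of the 12 NuRD subunits that work with CHD3 and CHD4, 5 fell (41.7%) and 1 rose (8.33%) at 2 h (median log2 -0.20). Over all tested genes 15.8% fell and 15.9% rose. The deacetylase HDAC2 fell to 147 and 170 CPM at 2 h, against 201 and 199 CPM in untreated cells (log2 -0.34, SE 0.11, edgeR adjusted p = 0.0271). The scaffold MTA2 fell (log2 -0.37, SE 0.09, edgeR adjusted p = 0.00693), while its paralog MTA1 rose (log2 0.35, SE 0.11, edgeR adjusted p = 0.0285). The linkers GATAD2A (log2 -0.32) and GATAD2B (log2 -0.53) and the small subunit CDK2AP1 (log2 -0.30) also fell. MTA3 was past the threshold between the heme times, lower at 4 h than at 2 h (log2 -0.33). Fewer NuRD genes passed the threshold without either untreated library or without the first 2 h library. More passed it without the second 2 h library. Over all tested genes the share past it moved the same way. Of 9 proteins that recruit or join CHD4, CBX3, a heterochromatin protein, fell (log2 -0.61, SE 0.12) and ZNF219 rose (log2 0.98, SE 0.22). CBX5 stood at log2 0.28 (SE 0.12) at 2 h and was past the threshold between the heme times, lower at 4 h (log2 -0.38), and TRIM28 was not past it (log2 -0.17, SE 0.09).

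Among 10 elongation factors that work near CHD1, 1 fell (10%) and 0 rose at 2 h, beside 15.8% and 15.9% of all tested genes. It was LEO1, a subunit of the PAF1 complex, at 26.3 and 32.2 CPM after 2 h, against 52.2 and 47.8 CPM in untreated cells (log2 -0.77, SE 0.14, edgeR adjusted p = 9.05e-04). CDC73 (log2 -0.33, SE 0.12), WDR61 (log2 -0.22, SE 0.10) and the FACT subunit SUPT16H (log2 -0.23, SE 0.10) were not past the threshold. More of the 10 fell without the second 2 h library, as did more of all tested genes. With the correction for GC content and length 7 fell. Of 9 genes of histone H3.3 and its chaperones 3 fell (33.3%) and 1 rose (11.1%). H3F3B, which encodes H3.3 (log2 -0.26, SE 0.09), and the chaperones HIRA (log2 -0.42, SE 0.13) and DAXX (log2 -0.36, SE 0.10) fell, and CABIN1 rose (log2 0.40, SE 0.12). Without either untreated library none of these 9 passed the threshold.

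At 2 h 15.8% of all tested genes fell and 15.9% rose. Of 11 genes of the MLL core and partners of CHD8, 3 fell (27.3%) and 0 rose at 2 h. They were WDR5 (log2 -0.42, SE 0.09), DPY30 (log2 -0.39, SE 0.13) and the insulator protein CTCF (log2 -0.47, SE 0.09, edgeR adjusted p = 0.00203). KMT2B stood at log2 -0.25 (SE 0.11) at 2 h and was past the threshold at 4 h against 2 h (log2 0.34). Fewer of the 11 fell without the first untreated library and more without the second 2 h library, as over all tested genes. Of 9 tested beta-catenin targets, the pathway that CHD8 restrains, 4 fell (44.4%) and 1 rose (11.1%). DKK1, a secreted Wnt antagonist, fell to 654 and 921 CPM at 2 h, against 1413 and 1315 CPM in untreated cells (log2 -0.79, SE 0.13). ZNRF3 (log2 -1.09, SE 0.13), SP5 (log2 -1.65, SE 0.36) and the cyclin CCND1 (log2 -0.32, SE 0.09) also fell, and TCF7 rose (log2 0.41, SE 0.14). SP5 was scarce, at most 1.99 CPM in a library. TCF7 did not pass the threshold without either untreated library, without the first 2 h library or without the second 4 h library.

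Genes known as partners or targets of CHD7 from neural crest and stem cells numbered 12, of which 8 passed the filter on low counts. TBX1 (log2 -0.72, SE 0.14) and TWIST1 (log2 -0.60, SE 0.21) fell and SOX4 rose (log2 0.42, SE 0.11) at 2 h. BMP4 was not past the threshold (log2 0.28, SE 0.19). At 4 h BMP4 stood at log2 0.74 (SE 0.18), and none of the 8 passed the threshold. Without either untreated library SOX4 did not pass it at 2 h, and 1 gene fell there as well as without the first 2 h or the first 4 h library.

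Of 26 SWI/SNF genes 8 fell (30.8%) and 3 rose (11.5%) at 2 h, beside 15.8% and 15.9% of all tested genes. BCL7A fell furthest, to 11.2 and 12.1 CPM at 2 h, against 27.7 and 24.9 CPM in untreated cells (log2 -1.17, SE 0.13, edgeR adjusted p = 2.41e-05). BRD9 (log2 -0.41, SE 0.10) and DPF1 (log2 -0.64, SE 0.19) fell, and SMARCC2 (log2 0.63, SE 0.11), ARID1B (log2 0.34, SE 0.11) and SMARCD3 (log2 0.51, SE 0.17) rose. Without the first untreated library 1 of the 26 fell and without the second 2 fell, with 1 gene rising in each case. Without the first 2 h library 4 fell. Of 10 tested ISWI genes 5 fell (50%) and 1 rose (10%). The motor SMARCA5 (log2 -0.41, SE 0.11), BAZ1A (log2 -0.73, SE 0.13), BAZ1B (log2 -0.62, SE 0.11), RSF1 (log2 -0.34) and POLE3 (log2 -0.28) fell, while BAZ2B rose (log2 1.07, SE 0.17). Without the first untreated library or the first 2 h library 2 of these 10 fell, and without the second untreated library 3 fell.

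Of 27 genes of the INO80, SRCAP and TIP60 complexes 5 fell (18.5%) and 3 rose (11.1%) at 2 h. That lower share was near the 15.8% of all tested genes, of which 15.9% rose. The actin-related subunits ACTR5 (log2 -0.67, SE 0.11) and ACTR8 (log2 -0.47, SE 0.12), INO80D (log2 -0.62, SE 0.15), UCHL5 (log2 -0.50) and RUVBL1 (log2 -0.30) fell. EPC1 (log2 0.54, SE 0.11), TRRAP (log2 0.41, SE 0.10) and EP400 (log2 0.29, SE 0.10) rose. NFRKB was past the threshold between the heme times, higher at 4 h than at 2 h (log2 0.37). Without the first untreated library 2 of the 27 fell and 1 rose, and without the second 3 fell and 1 rose. Of 16 other Snf2-type ATPases 5 fell (31.25%) and 0 rose. ERCC6L (log2 -0.98, SE 0.16), which acts in mitosis, SMARCAD1 (log2 -0.51, SE 0.13), ERCC6 (log2 -0.32, SE 0.11), SHPRH (log2 -0.52, SE 0.16) and HELLS (log2 -0.56, SE 0.18) fell. HLTF was past the threshold between the heme times, lower at 4 h than at 2 h (log2 -0.41). CHD1L was not past it at 2 h (log2 -0.14, SE 0.10). Fewer of the 16 fell without the first untreated library or the first 2 h library, and more without the second 2 h library. Over all tested genes the share that fell moved the same way.

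Of 5 tested genes that neighbour a CHD gene, 2 fell (40%) at 2 h, beside 15.8% of all tested genes. CYB5D1, near CHD3, fell (log2 -0.47, SE 0.11) while CHD3 was higher, and RGMB, near CHD1, fell (log2 -0.34, SE 0.12) as CHD1 was lower. RGMB-AS1 stood at log2 -0.70 (SE 0.35). SUPT16H, beside CHD8, stood at log2 -0.23 (SE 0.10). With 1 library left out, between 0 and 4 of the 5 fell.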

How the data were processed

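RNA from PC3 cells was sequenced in 6 libraries, 2 for each of 3 groups. The authors deposited raw counts of reads per gene symbol, 1 table per library, with 5 summary lines, which entered neither library sizes nor tests. Reads outside genes came to between 5.48% and 6.88% and ambiguous reads to between 4.23% and 4.48% of gene reads and summary lines together. Trimmomatic, STAR, SAMtools and deepTools and the build hg38 are named per the submitters' processing notes. Versions, annotation and strand setting were not given in the sources used here.

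The counts were fitted with edgeR 4.0.16 in R 4.3.3, with TMM scaling, filterByExpr at a minimum count of 10 (16209 genes), 1 quasi-likelihood fit of all 6 libraries without covariates (3 residual degrees of freedom), and Benjamini-Hochberg adjustment over all genes at 0.05. A standard error is that of the fitted log2 change. The alternatives were DESeq2 size factors, DESeq2 1.42.0, no filter, a replicate block, a fit of only the groups compared, leaving out each library, and a correction for GC content and length. Positions, lengths and GC content are from GENCODE on GRCh38, and promoter windows from RefSeq on GRCh38.p14.

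The members and gene lists were chosen with earlier results of these data known. The text names every member, for each list the 4 genes with the smallest p in any contrast and all genes past the threshold where at most 5 were in that direction, the 5 genes most like CHD7 and the 1 most like each other member. Some marker genes are not reported here.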

Additional observations from a re-analysis of the deposited data

Results flagged for a closer look

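The effect of heme at 4 h differed from that at 2 h for 5 of the 8 CHD genes, by edgeR's test between the heme groups, which 28.1% of all 16209 tested genes passed. The 4 h effect minus the 2 h effect was 2.25 log2 units for CHD7, 0.89 for CHD1 and 0.52 for CHD9, and it was -0.47 for CHD2 and -0.39 for CHD3. The family was chosen with these results in view, so the count and the differences are a description and nothing is read from them. The values for CHD3 and CHD9 were no longer past the threshold without the first 2 h library (log2 -0.27 for CHD3 and 0.36 for CHD9) or without the first 4 h library (log2 -0.34 for CHD3 and 0.48 for CHD9). With the correction for GC content and length, the value for CHD3 was -0.18 and not past the threshold.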

How the results depend on the processing

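No CHD gene past the threshold changed sign under the alternatives run, while the log2 changes of CHD1, CHD4 and CHD6 at 4 h, none past it, lay on either side of 0. With the correction for GC content and length, 1 CHD gene was higher and 5 were lower at 2 h, 75 partner and remodeller genes were lower at 2 h, 5 CHD genes were higher and 1 lower at 4 h against 2 h, and 80 partner and remodeller genes were higher at 4 h against 2 h. Under that correction 14.5% of all tested genes were higher and 27.5% lower at 2 h, and 27.0% higher and 13.96% lower at 4 h against 2 h. The cause was not tested. With only the groups compared in the fit, 7 partner and remodeller genes were lower at 4 h against 2 h, against 11 with all libraries. Over all tested genes the lower share was 12.3% in that fit, against 14.1% with all libraries. With 1 library left out, the count at 2 h ranged from 1 to 2 for CHD genes higher, from 2 to 3 for CHD genes lower, from 4 to 14 for partner and remodeller genes higher and from 15 to 56 for those lower. At 4 h against 2 h the range was 2 to 3 for CHD genes higher, 1 to 2 for CHD genes lower, 27 to 51 for partner and remodeller genes higher and 4 to 11 for those lower. At 4 h against untreated cells all these counts were 0 under every alternative run. Over all tested genes the higher and lower shares also moved with the library left out, at 2 h and at 4 h against 2 h. The ranges with 1 library left out are therefore not read as a trait of the CHD genes or of the lists.

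The log2 change at 2 h lay between -2.34 and -1.93 for CHD7 and between -1.29 and -0.67 for CHD1 over the 12 alternatives. The alternatives refit the libraries from which the family was chosen, so these ranges are a description. With the replicate number as a block, 2 CHD genes were higher and 2 lower at 2 h, and no call of a CHD gene changed. In that setting 10 partner and remodeller genes were higher and 38 lower, beside 15.1% and 14.6% of all tested genes. Same-numbered libraries did not deviate together. The correlations were -0.09 between 2 h and untreated, 0.07 between 4 h and untreated and -0.02 between 4 h and 2 h. The labels do not say whether same-numbered libraries shared a culture or batch. With 2 libraries a group these correlations cannot settle it.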
